A study of Mus musculus with 10 samples.

Results

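Neutrophils leave the blood with a small set of surface proteins, and the genes of 9 of them were followed here, Itgam, Itgb2, Itgal, Itgax, Itga4, Itgb1, Selplg, Icam1 and Cd44. They were taken by their gene symbols, and all 9 were found among the 13091 genes that each of the 4 deposited tables lists. The RNA came from neutrophils matured in culture from mouse bone marrow progenitors of strain 129-SVEV, which had been immortalized with an estrogen-dependent HoxB8 and expanded from single sorted cells. There were 10 libraries in 4 groups. Wild-type (Vim+/+) neutrophils gave 2 unstimulated libraries and 2 after 1 hour with LPS at 25 ng/mL, and neutrophils without vimentin (Vim-/-), which the labels call a knockdown and the study's methods derive from knockout mice, gave 3 of each. All groups share the HoxB8 construct and the drug selection that came with it. LPS, a component of the outer membrane of Gram-negative bacteria, is the stimulus.

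Each gene has 1 usable value, the authors' mean of its normalized read counts over the libraries, which was identical in the 4 tables for every gene and is therefore taken to cover all 10. Of the 10 libraries behind it, 6 are Vim-/- and 5 were treated with LPS, so the mean leans towards Vim-/- cells and blends stimulated with unstimulated ones. No value per library or per group was analysed here, so the spread between replicates and the depth of each library are unknown, and the levels below carry no error and no test. A difference between genotypes or with LPS is not reported for any gene. The values show how much of each adhesion transcript these neutrophils held on average. In bulk RNA, fewer cells with a transcript and less transcript per cell cannot be told apart.

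Leukocytes first roll on the vessel wall, when selectins on endothelium, platelets or the leukocyte itself hold sugar-bearing ligands such as PSGL-1 and CD44. They then arrest through integrins, which are pairs of 1 α and 1 β chain that bind ICAM-1 and other ligands once signals from inside the cell, relayed by talin and kindlin, open them. Neutrophils are known for the β2 integrins Mac-1 and LFA-1, and in people who lack the β2 chain the recruitment of neutrophils to infected tissue is severely impaired.

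Genes were compared with each other per kilobase (kb) of the longest annotated transcript, since a longer transcript yields more reads. Such a length was found for 12046 genes (92%), whose median was 310 normalized counts per kb. On this scale 8 of the 9 adhesion genes lay above the median gene and 4 lay among the 1204 highest, the top 10%. The 9 genes had a median of 2920 per kb, and the highest stood 425-fold above the lowest. Together they took 0.548% of the 55507688 normalized counts summed over all genes.

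**Figure D1:**
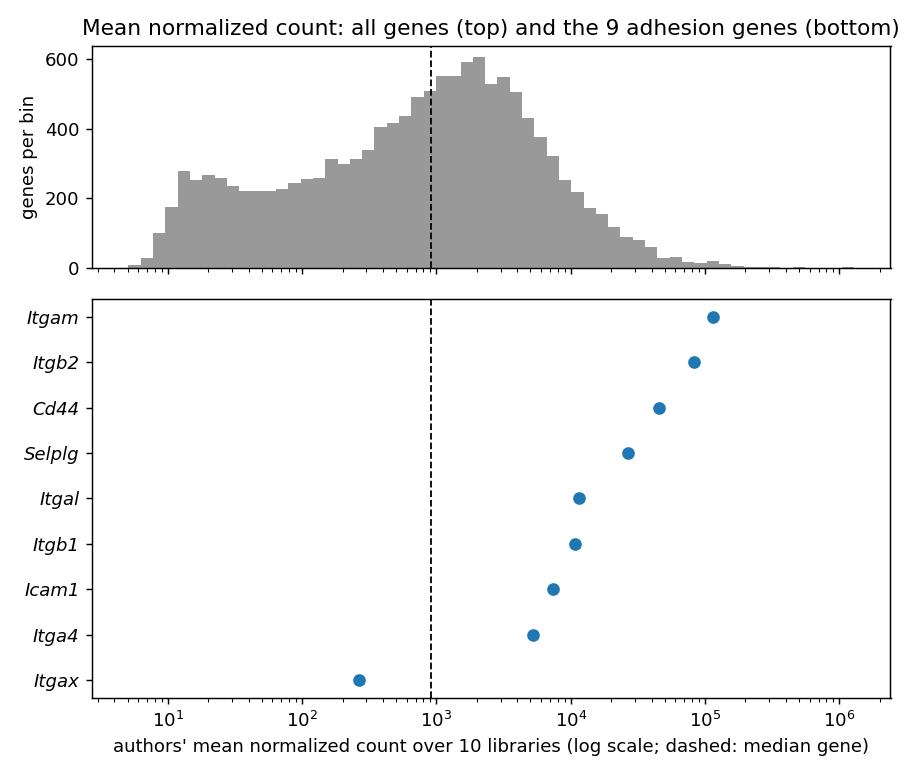
Distribution of the mean normalized count over all 13091 genes (upper panel, genes per bin) and the mean of each of the 9 adhesion genes (lower panel, 1 point a gene), both on a log axis, with the median gene at 907 as a dashed line. Itgam at 114603 lies near the right end of the distribution, and Itgax at 265 is the only member left of the median.

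Itgb2 encodes the β2 chain (CD18), the partner that Mac-1, LFA-1 and CD11c share. The gene spans bases 77530329 to 77565708 of chromosome 10 on GRCm38 (the build also named mm10), and positions below are on the same build. Its mean normalized count was 82609, which is 27815 per kb and the highest level per kb of the 9 genes (rank 135 of 12046). Itgam encodes the αM chain (CD11b) of Mac-1, which also serves as a complement receptor and is the surface protein used with Ly6G to recognize neutrophils. The gene spans chromosome 7 from 128062640 to 128118491. Its mean was 114603, or 24477 per kb (rank 154). The 2 chains of Mac-1 thus had similar levels, with Itgam at 0.88 of Itgb2 per kb, and between 0.843 and 0.915 of it under the other lengths tried.

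Itgal encodes the αL chain (CD11a) of LFA-1, the main ICAM-1 receptor of lymphocytes, which neutrophils carry as well. On chromosome 7 it spans 127296139 to 127335137. Its mean of 11424 came to 2188 per kb (rank 1649), and Itgam stood 11.2-fold above it per kb. Itgax encodes the αX chain (CD11c), best known from dendritic cells. On the same chromosome it spans 128129526 to 128150657. It was the lowest member, with a mean of 265 and 65.4 per kb (rank 9166), below the median gene. Per kb, Itgam stood 374-fold above Itgax, although the genes are neighbors that are 11034 bases apart and read in the same direction.

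Summed per kb, the 3 α chains that pair with β2 came to 26730, against 27815 for Itgb2, a ratio of 0.961. Of that sum Itgam held 91.6%, Itgal 8.18% and Itgax 0.245%. A further β2 partner, Itgad, lies 23275 bases beyond Itgax, and its mean was 28 (6.82 per kb).

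The stretches before the neighbors Itgam and Itgax are shown because these genes lie far apart in level while sharing a locus. They are from RefSeq on GRCm38.p6, plus strand, and end at the last base before the first annotated base of the gene. Capitals mark GAGGAA, the core that the myeloid factor PU.1 is known to prefer, on either strand.

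Itgam, chr7:128062390-128062639: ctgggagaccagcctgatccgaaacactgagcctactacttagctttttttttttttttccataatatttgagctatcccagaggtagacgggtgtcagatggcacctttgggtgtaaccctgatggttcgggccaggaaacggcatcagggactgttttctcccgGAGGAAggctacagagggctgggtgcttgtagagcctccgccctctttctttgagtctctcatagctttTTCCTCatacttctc

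Itgax, chr7:128129300-128129525: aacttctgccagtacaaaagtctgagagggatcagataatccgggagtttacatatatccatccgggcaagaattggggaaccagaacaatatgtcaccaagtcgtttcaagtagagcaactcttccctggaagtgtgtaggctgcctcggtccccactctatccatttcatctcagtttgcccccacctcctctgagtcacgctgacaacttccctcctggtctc

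In the 250 bases before the start, GAGGAA or its reverse complement was found at 2 places for Itgam, beginning 84 and 15 bases before the start, and at 0 for Itgax, for which all 250 bases were searched although only the 226 before the first annotated base are printed. Of all 32851 promoters in the table, 23.3% hold at least 1 match in these 250 bases. A promoter entry was matched for 6 of the 9 genes, and 3 of the 6 held a match, with 2 for Cd44, 1 for Itgb1 and 0 for Itga4 and Icam1. The promoters of Itgb2, Itgal and Selplg were not analysed here. A match is a string of letters in a window, and binding was not measured.

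Itgb1 encodes the β1 chain (CD29), which forms receptors for fibronectin, laminin and VCAM-1 with several α chains. Its place is chromosome 8 from 128685654 to 128733579. Its mean was 10725, or 2811 per kb (rank 1280), and Itgb2 stood 9.89-fold above it per kb. Itga4 encodes the α4 chain (CD49d), which with β1 forms VLA-4, the VCAM-1 receptor, and is known to be more abundant on eosinophils, monocytes and lymphocytes than on mature neutrophils. It spans 79255426 to 79333114 of chromosome 2. Its mean was 5219, or 534 per kb (rank 4594), the second lowest of the 9 genes and still above the median gene.

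Of the α chains that can pair with β1, 6 had a value, and their transcripts summed per kb to 0.702 of Itgb1. Under the other lengths tried the sum was between 0.552 and 0.854 of Itgb1. Itga5, the fibronectin receptor chain, had 853 per kb and a mean of 3764. Itga6, a laminin receptor chain, had 402 per kb and a mean of 1734. Itga4 held 27.1% of this sum with the longest transcript and 44.1% with the longest coding sequence, where it stood at 1686 per kb against 1192 for Itga5. The order of Itga4 and Itga5 therefore turns with the length used, as the longest Itga4 transcript has 9767 bases, of which at most 3096 are coding.

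Selplg encodes PSGL-1, the mucin-like ligand that binds selectins. On the minus strand of chromosome 5 it spans 113817798 to 113832528. Its mean was 26592, or 11492 per kb (rank 319), the third highest per kb. Cd44 encodes the hyaluronan receptor CD44, which on neutrophils also carries sugars that bind E-selectin. On the minus strand of chromosome 2 it spans 102811141 to 102901669. Its mean was 45273, or 8064 per kb (rank 441). Per kb Cd44 stood at 0.702 of Selplg with the longest transcript and at 1.07 of it with the union of all exons, so their order turns with the length used.

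Icam1 encodes ICAM-1, an immunoglobulin-like ligand of LFA-1 and Mac-1 that leukocytes and endothelium carry and that NF-κB is known to induce. Its gene is on chromosome 9, from 21015940 to 21028814. Its mean was 7402, or 2920 per kb (rank 1243), the middle value of the 9 genes. As for every member, the mean blends 5 LPS-treated with 5 unstimulated libraries, and the level in each state was not analysed here. Icam1, Itgb1 and Itgal lay close together at 2920, 2811 and 2188 per kb, and with the union of exons their order became Itgb1, Itgal, Icam1 at 2628, 1739 and 1698.

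**Figure D2:**
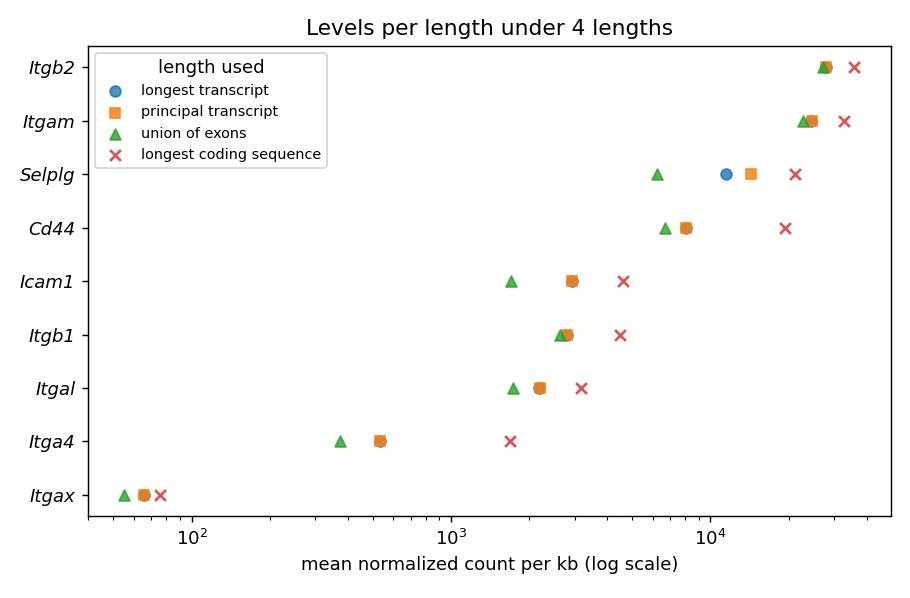
Mean normalized count per kb (log axis) of the 9 adhesion genes, with 1 marker for each of 4 lengths: longest transcript, principal transcript, union of exons and longest coding sequence. Itgb2 and Itgam stay at the top and Itgax at the bottom under each length, while Selplg and Cd44 change places, as do Icam1, Itgb1 and Itgal.

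The union of all annotated exons exceeded the longest transcript most for Selplg (1.85-fold), Icam1 (1.72-fold) and Itga4 (1.43-fold). Coding length gave the largest fold rises for Itga4 (from 534 to 1686 per kb) and Cd44 (from 8064 to 19347 per kb). Some members also overlap other annotations. Cerkl, on the opposite strand, shares exonic sequence with Itga4 and had a mean of 81.2, and Gm47079 lies antisense to Icam1. Gm49368 overlaps exons of Itgam on the same strand. The sources used here do not say whether counting used strand, so reads of the opposite-strand pairs may have been assigned to either gene or dropped. For Itgam and Gm49368 the same may hold with or without the use of strand.

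The label of the cells was checked with 14 neutrophil markers. All 14 had a value and lay in the top 10% of genes per kb, with means from 11373 for Ly6g to 1290830 for S100a9, the highest gene of all. Of the T cell, B cell, NK cell, dendritic cell and erythroid lists, 1, 1, 0, 0 and 0 genes had a value, namely Cd3d at 250 and Cd79a at 83.8. Of the 4 eosinophil markers, the granule genes Prg2 at 268319 and Epx at 142776 ranked 11 and 25 among all genes, and Siglecf had 4599 and Il5ra 131. Of 8 macrophage or monocyte markers 5 had a value, between 1256 for Ccr2 and 26480 for Ly6c2, and of 5 mast cell or basophil markers 4 did, between 593 for Ms4a2 and 26296 for Cpa3. Eosinophils, monocytes and basophils carry Itgam, Itgb2 and Itga4 as well, and their part in the levels of these genes was not tested. Vim, the targeted gene, had a mean of 39926, a blend of both genotypes that checks no label.

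Of 20 other integrin chains listed, 12 had a value, with a median of 229 per kb against 2920 for the 9 genes and 310 for all genes, and 0 were in the top 10%. The ranges overlapped, as Itga2b, Itga5 and Itgb5 at 1897, 853 and 673 per kb lay above Itga4. The highest were Itga2b at 6521 (the platelet integrin chain αIIb), Itga5 at 3764 and Itgb5 at 2208, and the lowest were Itgb4 at 11.4 and Itga8 at 8.37. Itga1, Itga2, Itga3, Itga7, Itga10, Itga11, Itgb6 and Itgb8 were not analysed here.

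Of 26 listed genes for proteins that open integrins and tie them to actin, 23 had a value, with a median of 3920 per kb, and 14 were in the top 10%. Flna (filamin A, which holds integrins inactive and crosslinks actin) had 84502 (9993 per kb), Tln1 (talin-1, which opens integrins) 44952 (5356 per kb) and Zyx (zyxin, an adhesion site protein) 38819 (12177 per kb). Fermt3, the kindlin of blood cells, had 12173 per kb. Tln2 at 31.4 and Rapgef3 at 74.2 were the lowest, and Fermt1, Fermt2 and Parva were not analysed here.

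Of 18 genes that signal from bound integrins 17 had a value, with a median of 3865 per kb and 10 in the top 10%. The highest were Cd47 at 58213 (11088 per kb), Tyrobp at 50356 (84348 per kb) and Fcer1g at 41024 (60065 per kb). Tyrobp and Fcer1g encode the small adaptors that pass β2 integrin signals to the kinase Syk, itself at 6189 per kb. Vav3 at 1981 and Src at 15.8 were the lowest, and the Src-family kinases Lyn and Fgr stood at 8116 and 2928 per kb. Ptk2 was not analysed here.

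Of 16 integrin ligands other than Icam1, 11 had a value, with a median of 20.8 per kb, and 2 were in the top 10%, C3 (complement, whose cleaved form binds Mac-1) at 146549 and Thbs1 (thrombospondin-1) at 64316. Spp1 had 3925, and Jam3 at 21.8 and Icam5 at 16.3 were the lowest. Vcam1, the ligand of VLA-4, had 48 and Icam2 had 1063. Madcam1, Fga, Fgb, Fgg and Vtn were not analysed here.

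Of 12 selectins and further selectin ligands 9 had a value, with a median of 837 per kb and 4 in the top 10%. Cd164 had 19923 and Spn (CD43, a mucin that also binds E-selectin) 17647, while Lgals3bp at 229 and Podxl2 at 13.2 were the lowest and Selp (P-selectin) had 415. Sele, Podxl and Emcn were not analysed here. Of 10 genes for enzymes that build the selectin-binding sugars on PSGL-1 and CD44, 9 had a value, with a median of 789 per kb and 1 in the top 10%. Gcnt1, which starts the branched sugar, had 10311, B4galt1 had 9861 and Tpst2, which adds the sulfate that P-selectin needs on PSGL-1, had 6135 (3343 per kb). Fut7, the main fucosyltransferase for selectin ligands, had 1011 (487 per kb), and Fut4 at 93.5 and B3gnt5 at 57.6 were the lowest. Tpst1 was not analysed here.

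All 7 genes for shedding of adhesion proteins and for the linkers of CD44 and PSGL-1 to the cortex had a value, with a median of 2478 per kb and 3 in the top 10%. Adam8 had 60220 (16413 per kb), Msn (moesin) 57763 (15035 per kb) and Ezr (ezrin) 29316 (9265 per kb). Adam17, a protease known to shed surface adhesion proteins, had 8574 (1919 per kb). Rdx at 3789 and Mmp14 at 32 were the lowest.

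**Figure D3:**
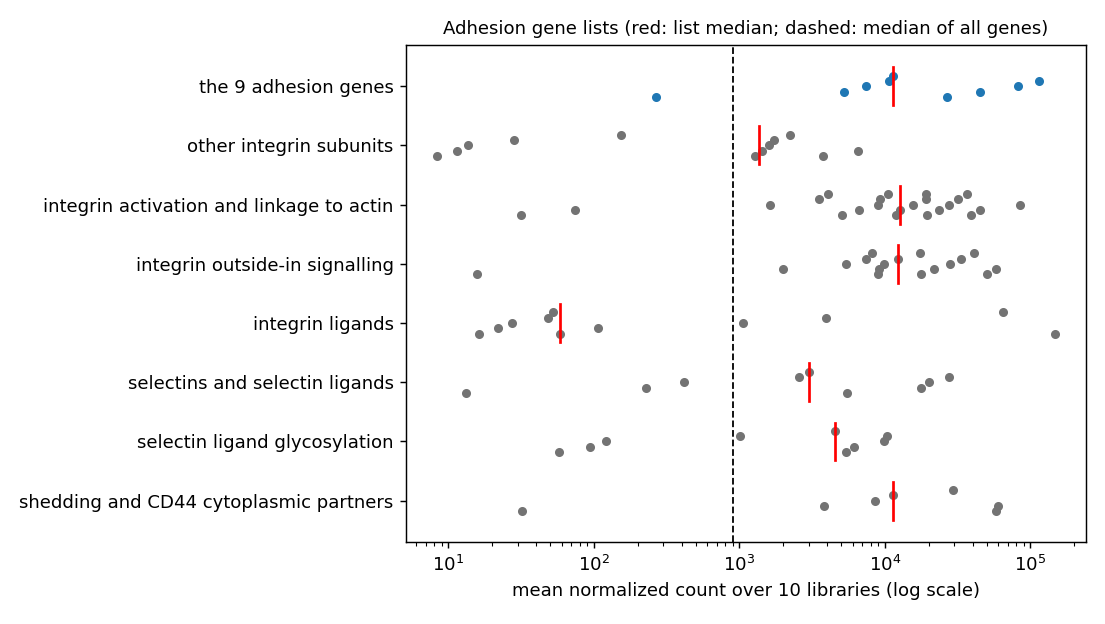
Mean normalized count (log axis) of each gene with a value in 8 adhesion lists, 1 point a gene, with the list median in red and the median of all genes (907) dashed. The points are shifted vertically only so that they can be seen. The 9 adhesion genes, the activation and actin list, the signaling list and the shedding list have medians of 11424, 12735, 12375 and 11380, and integrin ligands lie lowest with a median of 58.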

How the data were processed

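RNA of 10 libraries was sequenced. Per the labels and the study's methods, mRNA libraries were read in pairs, the authors removed adapters and poor bases using cutadapt 4.4, STAR 2.7.10b mapped and counted the remainder against mm10, and DESeq2 1.26.0 normalized the counts, with RUVSeq covariates in its model. The gene annotation and the use of strand are not given in the sources used here. The 4 deposited tables hold the authors' mean normalized count of each gene over all libraries, recorded as signal, which is the only value used. Their other columns hold the authors' own comparisons (fold changes, standard errors, p-values) and were not used, so no group was compared. The smallest mean is 5.08.

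Means were divided by the longest transcript of GENCODE M21 (GRCm38), matched by symbol, or by the alternatives in the closing section. Positions and promoters came from RefSeq GRCm38.p6. Ranks count genes from the highest, and the ranking was tested on simulated data. In each list fixed with the design, the 3 highest and 2 lowest genes by mean, those without a value, and some chosen after their values were seen were named. Some genes of these lists are not reported here. The members and lists were chosen with earlier results of these data known. Python 3.11.15, pandas 2.3.3, numpy 2.4.6 and matplotlib 3.10.9 were used.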

Additional observations from a re-analysis of the deposited data

How the results depend on the processing

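The sum of Itgam, Itgal and Itgax over Itgb2 per kb was 0.961 with the longest transcript, 1.01 with the longest coding sequence, and 0.909 with the union of exons and 0.968 with the principal transcript, which were added after seeing the data, so whether it lies above or below 1 turns with the length. On the mean normalized count 6 members were in the top 10% of genes, also among the 10321 genes with a mean of at least 100 and the 11188 with a coding sequence, and 4 were per kb. The median of the 88 other adhesion genes with a value was 6328, and 9277 for the 71 with a mean of at least 100, since that choice removes the low genes. Leaving out each replicate was not run, because the tables give 1 mean over all libraries. No paired analysis was possible because the result comes from no test and the columns carry no replicate.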

Other observations

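Itga2b, the platelet integrin chain, had a mean of 6521, while the other 4 genes of the megakaryocyte list lay between 38.1 for Pf4 and 106 for Ppbp. These genes were chosen after their values were seen. Cd34 and Kit, which are known from progenitors, had means of 2564 and 1075. Itgb3, the usual partner of Itga2b, had 1591, which is 275 per kb against 1897 for Itga2b.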
